A study of Mus musculus with 4 samples.

Results

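The genes described here are the 7 cyclin-dependent kinase inhibitors of the INK4 family (Cdkn2a, Cdkn2b, Cdkn2c and Cdkn2d) and the CIP/KIP family (Cdkn1a, Cdkn1b and Cdkn1c), with Lmnb1 and Hmgb2, which encode nuclear proteins known to be lost in senescent cells. They were chosen by gene symbol, with earlier results of these data known. All 9 were found among the 55359 genes listed in the count table, and all 9 passed the filter on low counts that left 15029 genes for testing. Of the 9, 3 were lower and 0 higher in OENr4a3 than in OECtrl libraries: Cdkn2a, Cdkn2b and Lmnb1. Across all tested genes 11.0% were lower, 12.0% higher and 23.0% either. With a trend of the fold changes along gene length removed, 2 members were lower (Cdkn2a and Lmnb1) and 0 higher, beside 11.2% and 9.07% of all tested genes.

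The RNA came from primary cardiac fibroblasts, which make the matrix of the heart, isolated from wild-type newborn mice (age P1-P3 in the labels). OENr4a3 cells overexpressed Nr4a3, an orphan nuclear receptor, and OECtrl cells received the overexpression control (2 libraries each). The study asked how Nr4a3 holds back the direct reprogramming of fibroblasts into cardiomyocyte-like cells, and its title ties Nr4a3 to senescence. The sample titles name day 10 and the design text names day 7 of reprogramming, and the labels used here name neither the vector nor the reprogramming factors. The labels do not say whether the replicates are separate cultures. The p-values therefore rest on the spread of these 4 libraries alone, and that spread may be technical.

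The libraries held 18441428 and 18287644 counts in OENr4a3 and 14275501 and 16461333 in OECtrl. Nr4a3 stood at 175 and 178 CPM in OENr4a3, against 2.49 and 1.85 CPM in OECtrl, which checks the labels (CPM, read counts scaled to a common library size). The OECtrl libraries differed from each other more than the OENr4a3 libraries did, at a chi-square over degrees of freedom of 15.5 against 2.55 in OENr4a3. Longer genes tended to be higher in OENr4a3: the log2 fold change had a Spearman rho of 0.42 with exonic length across 15029 genes, which are not independent replicates. Of 1911 tested genes under 1500 exonic bases, 24.1% were lower and 2.51% higher, with a median log2 fold change of -0.39. Cdkn2a (1172 bases) and Cdkn2b (1390 bases) belong to these short genes, so the values of the members are also given with the length trend removed, and those of some other genes too.

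All 10 fibroblast markers were read, at a summed 18700 and 18800 CPM in OENr4a3 and 19400 and 18900 CPM in OECtrl. Of these, 3 were higher (Col1a1, Pdgfra and Ddr2) and 4 lower (Tcf21, Lum, Thy1 and Vim). The counts of called markers stand beside 12.0% higher and 11.0% lower of all tested genes. Of 10 mesothelial and epicardial markers, 0 were higher and 6 lower, and they summed to 475 and 442 CPM in OENr4a3, against 988 and 1060 CPM in OECtrl, with Cdh1 at 0 in OENr4a3. Of 10 macrophage markers, 0 were higher and 6 lower (Adgre1, C1qa, C1qb, C1qc, Cd14 and Lyz2). They summed to 671 and 648 CPM in OENr4a3, against 1010 and 985 CPM in OECtrl. Most of that was Lyz2, and the rest summed to 140 and 134 CPM in OENr4a3, against 200 and 171 CPM in OECtrl. Endothelial markers (2 higher, 2 lower) summed to 586 and 627 CPM in OENr4a3, against 434 and 376 CPM in OECtrl. Most of that sum was Eng, at 421 and 461 CPM in OENr4a3, against 310 and 260 CPM in OECtrl. Eng and Flt1 (115 and 111 CPM in OENr4a3, against 63 and 54.4 CPM in OECtrl) were higher. Emcn and Egfl7 were lower, and the rest were not called or not tested. Smooth muscle and pericyte markers (1 higher, 4 lower) summed to 2010 and 2070 CPM in OENr4a3, against 2690 and 2790 CPM in OECtrl. Most of that was Acta2, and the rest summed to 442 and 468 CPM in OENr4a3, against 575 and 596 CPM in OECtrl. Of 10 cardiomyocyte markers, 4 were tested, 1 was higher (Myh6) and 1 lower (Tnnt2), and the full list summed to 264 and 291 CPM in OENr4a3, against 454 and 500 CPM in OECtrl. Nearly all of that sum was Tnnt2, at 250 and 284 CPM in OENr4a3, against 448 and 495 CPM in OECtrl (log2 fold change -0.82, adjusted p = 0.0014). Without Tnnt2, the cardiomyocyte markers summed to 14.2 and 7.18 CPM in OENr4a3, against 6.09 and 5.32 CPM in OECtrl, where Myh7 was at 0. The part of these marker differences in the values below was not tested. In bulk RNA, fewer cells of a type and less RNA per cell cannot be told apart.

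INK4 proteins bind the kinases CDK4 and CDK6 and keep them from pairing with D-type cyclins, which holds the retinoblastoma protein active and the cell in G1 phase. CIP/KIP proteins bind complexes of cyclins with CDK2 and related kinases. Rising levels of these inhibitors, above all of p16 from Cdkn2a and p21 from Cdkn1a, are a classic mark of senescence, and loss of lamin B1 from the nuclear lamina and of the chromatin protein HMGB2 accompanies it. Cdkn2a has separate promoters for p16INK4a and for p19ARF, an activator of p53 that shares exons with p16INK4a in another reading frame. Counts per gene do not separate these products.

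Cdkn2a (ENSMUSG00000044303) spans 89274471 to 89294653 on the minus strand of chromosome 4 in GRCm38, and Cdkn2b (ENSMUSG00000073802) lies beside it at 89306299 to 89311039 on the same strand. Both genes fell, and the windows around their starts (250 bases before to 50 after, from RefSeq on GRCm38.p6, minus strand, 5′ to 3′) show which starts the gene counts pool. The upstream window of Cdkn2a, at chr4:89294570-89294869, belongs to the Arf transcript, the downstream window at chr4:89282143-89282442 to the Ink4a transcript, and that of Cdkn2b is chr4:89310983-89311282. Capitals mark the GC box GGGCGG, the CCAAT box on either strand, and AGGTCA, the core that nuclear receptors recognise.
Cdkn2a, Arf start: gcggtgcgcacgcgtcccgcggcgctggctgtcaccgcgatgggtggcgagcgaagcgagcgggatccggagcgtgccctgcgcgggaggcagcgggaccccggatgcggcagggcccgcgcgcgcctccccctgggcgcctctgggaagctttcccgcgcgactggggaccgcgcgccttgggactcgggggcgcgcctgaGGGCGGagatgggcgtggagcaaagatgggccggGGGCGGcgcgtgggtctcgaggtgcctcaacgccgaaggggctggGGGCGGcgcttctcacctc
Cdkn2a, Ink4a start: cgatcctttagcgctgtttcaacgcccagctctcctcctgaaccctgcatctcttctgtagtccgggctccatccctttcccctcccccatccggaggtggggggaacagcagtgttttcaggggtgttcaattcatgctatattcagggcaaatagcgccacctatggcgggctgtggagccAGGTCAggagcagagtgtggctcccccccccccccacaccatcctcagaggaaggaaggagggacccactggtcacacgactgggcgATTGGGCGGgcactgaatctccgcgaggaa
Cdkn2b: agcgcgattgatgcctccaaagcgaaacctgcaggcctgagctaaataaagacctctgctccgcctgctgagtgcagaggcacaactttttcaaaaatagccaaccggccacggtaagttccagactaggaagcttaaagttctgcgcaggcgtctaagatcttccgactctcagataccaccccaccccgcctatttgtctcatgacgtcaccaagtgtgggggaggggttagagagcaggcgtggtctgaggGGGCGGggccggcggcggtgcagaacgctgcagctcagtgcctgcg

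The Arf window held 3 GC boxes and a GC content of 77.0%. The Ink4a window (60.3% GC) held 1 GC box, which overlaps a CCAAT box on the other strand, and 1 AGGTCA beginning 67 bases before the start. The Cdkn2b window (57.7% GC) held 1 GC box. The NBRE, AAAGGTCA, to which NR4A receptors bind as monomers, was found on neither strand in any of the 10 windows of 7 members in the RefSeq table (all but Cdkn1c and Lmnb1), and in 1.51% of all 32851 windows. AGGTCA, which lies within the NBRE, was in 2 of the 10 windows and 16.3% of all. GC boxes were in 8 of the 10 windows and 35.7% of all, and CCAAT boxes in 5 of the 10 and 37.4% of all. These matches describe the letters of the windows and say nothing of binding.

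Cdkn2a showed the largest difference of the 9 members. It had 12.3 and 12.6 CPM in the OENr4a3 libraries, against 28.6 and 42.1 CPM in the OECtrl libraries, from 223 and 227 reads in OENr4a3 and 413 and 703 in OECtrl. Both OENr4a3 libraries lay far below both OECtrl libraries, and the OECtrl libraries lay further apart than the OENr4a3 libraries. The level fell to 0.352 of that in OECtrl (log2 fold change -1.51 ± 0.185 SE, 95% interval -1.92 to -1.09, edgeR adjusted p = 0.0011). It ranked 194 by p among the 15029 tested genes. With the length trend removed, Cdkn2a remained lower at -1.19 ± 0.141 SE (adjusted p = 0.000308).

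Cdkn2b encodes p15, the INK4 protein best known as a target of TGF-beta. It had 42.1 and 44.1 CPM in OENr4a3, against 53.8 and 74.7 CPM in OECtrl (means 43.1 ± 1.36 and 64.2 ± 14.8 CPM, SD, n = 2 each). The groups did not overlap, but the difference between the means was of the order of the distance between the OECtrl libraries. Cdkn2b fell with a log2 fold change of -0.58 ± 0.152 SE (95% interval -0.918 to -0.237, adjusted p = 0.0265). It did not pass without the filter on low counts (adjusted p = 0.0747), with the length trend removed (-0.29, adjusted p = 0.0884), or when OENr4a3 replicate 1 (0.148) or OENr4a3 replicate 2 (0.0947) was left out. When OECtrl replicate 2, the library with the higher values, was left out, the log2 fold change was -0.32.

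**Figure D1:**
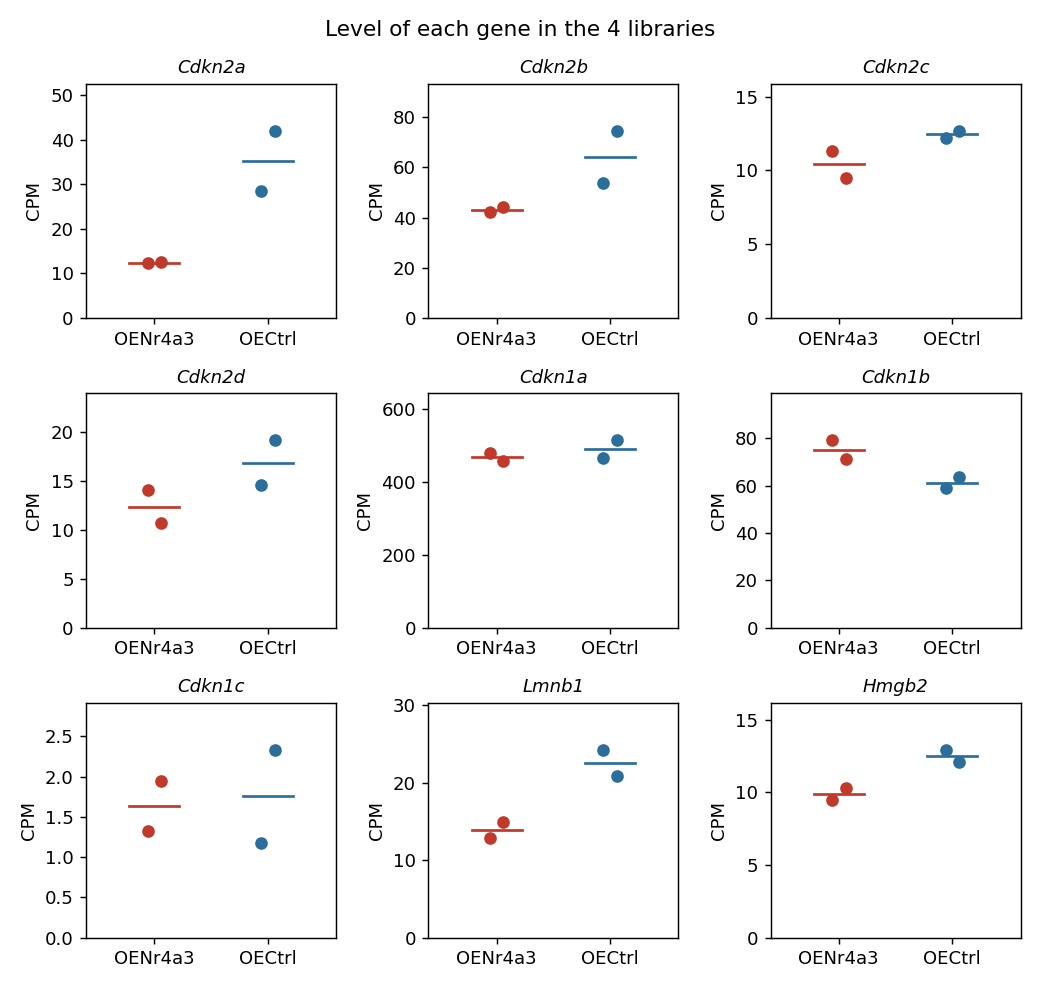
Level of each gene in CPM (vertical axes, each from 0) in the 2 OENr4a3 libraries (left, red) and the 2 OECtrl libraries (right, blue); points are libraries and lines are group means. Cdkn2a stands at 12.3 and 12.6 CPM in OENr4a3 against 28.6 and 42.1 CPM in OECtrl, while the Cdkn1a points of both groups overlap.

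The log2 fold change of Cdkn2a lay further from 0 than those of its neighbours at the locus. Within a library, Cdkn2a stood at 0.346 and 0.34 of the Cdkn2b level per kilobase in OENr4a3, against 0.63 and 0.668 in OECtrl. The ratio was thus close in the replicates of each group although both genes were higher in OECtrl replicate 2 than in replicate 1, by 1.47 times for Cdkn2a and 1.39 times for Cdkn2b. With 2 libraries a group the ratio was not tested. Neighbours were taken from the starts listed in the authors' table, which differ from GRCm38 positions although the processing notes name mm10, so only distances were used. Of the 12 other genes whose listed start lies within 250 kb of that of Cdkn2a, 10 fell below the filter, with at most 9 reads in any library. Besides Cdkn2b the tested neighbour was Mtap, which encodes an enzyme of methionine salvage. Mtap had 104 and 108 CPM in OENr4a3, against 107 and 125 CPM in OECtrl, and did not pass the test (log2 fold change -0.13, 95% interval -0.38 to 0.117, adjusted p = 0.409). Its log2 fold change was -0.24 without OECtrl replicate 1 and -0.02 without OECtrl replicate 2.

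Cdkn2d, on chromosome 9, encodes p19INK4d, which is unrelated to the Arf product of similar name. It had 14.0 and 10.7 CPM in OENr4a3, against 14.5 and 19.1 CPM in OECtrl (log2 fold change -0.45, 95% interval -0.869 to -0.0231, adjusted p = 0.112). The OENr4a3 values were the lower, but replicate 1 of each group differed little. The log2 fold change of Cdkn2d was -0.63 without OECtrl replicate 1 and -0.23 without OECtrl replicate 2. The length-removed value was -0.18 (adjusted p = 0.464). Cdkn2c, further along chromosome 4 from 109660876 to 109667189, encodes p18INK4c. It had 11.3 and 9.51 CPM in OENr4a3, against 12.2 and 12.7 CPM in OECtrl (log2 fold change -0.26, 95% interval -0.611 to 0.097, adjusted p = 0.257; -0.13 and 0.581 after length removal). Both intervals include the log2 fold change of Cdkn2b as well as values close to 0.

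Cdkn1a (ENSMUSG00000023067, chromosome 17, 29090976 to 29100727, plus strand), which encodes the p53 target p21, was the most abundant member. It had 477 and 456 CPM in OENr4a3, against 465 and 513 CPM in OECtrl. The libraries of the groups overlapped, and the log2 fold change of -0.07 ± 0.0956 SE did not pass the test (95% interval -0.282 to 0.147, adjusted p = 0.637). The length-removed value was -0.02 (adjusted p = 0.864). The antisense gene 1700023B13Rik overlaps it, with 39 and 30 reads in OENr4a3 and 18 and 22 in OECtrl, few beside the reads of Cdkn1a, 8668 and 8201 in OENr4a3 and 6721 and 8577 in OECtrl.

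Cdkn1b, on chromosome 6 from 134920401 to 134925513, encodes p27, an inhibitor high in resting cells. It was the only member whose libraries were both higher in OENr4a3, at 79.2 and 71.4 CPM, against 59.0 and 63.7 CPM in OECtrl. The log2 fold change of 0.30 ± 0.11 SE had a 95% interval of 0.0488 to 0.542 and did not pass after adjustment (adjusted p = 0.0786; 0.0778 with the length trend removed). The log2 fold change of Cdkn1b was 0.24 without OECtrl replicate 1 and 0.35 without OECtrl replicate 2. Relative to Cdkn1a per kilobase, Cdkn1b stood at 0.129 and 0.122 in OENr4a3, against 0.0989 and 0.0969 in OECtrl. Cdkn1c, the maternally expressed, imprinted gene of p57 on chromosome 7, was scarce: 24 and 35 reads in OENr4a3, against 17 and 39 in OECtrl, or 1.32 and 1.95 CPM in OENr4a3 and 1.18 and 2.33 CPM in OECtrl. The groups overlapped, and the interval of -1.05 to 0.809 leaves its direction undetermined at this depth. The fitted log2 fold change was -0.12, and 0.10 after length removal.

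**Figure D2:**
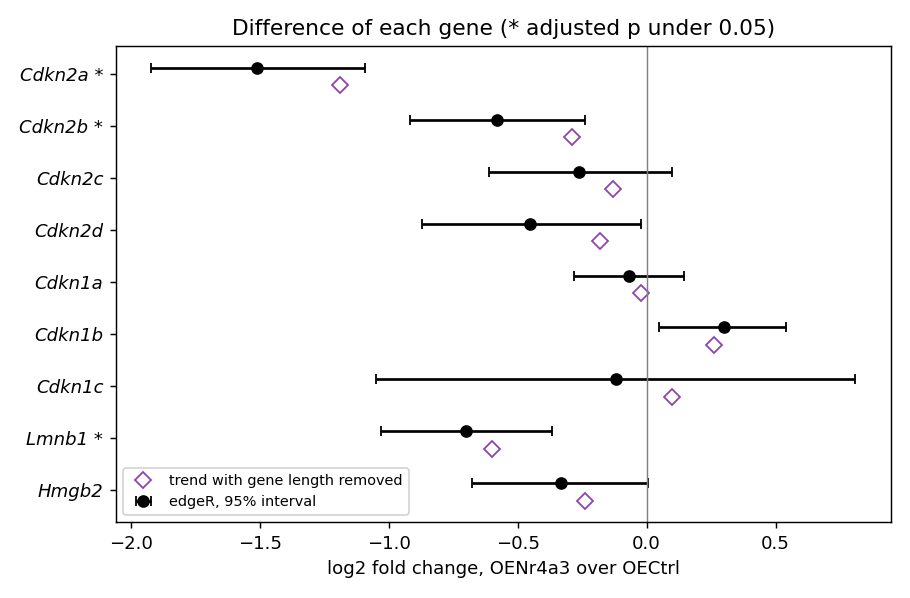
Log2 fold change of OENr4a3 over OECtrl (horizontal axis) for each gene (rows), as black points with the 95% interval from edgeR and as open diamonds with the length trend removed; an asterisk marks an adjusted p under 0.05. Cdkn2a lies at -1.51, Lmnb1 at -0.70 and Cdkn2b at -0.58, and the Cdkn1b interval lies above 0 without an asterisk.

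Per kilobase of exonic length, the scale on which genes can be compared, Cdkn1a stood first in all 4 libraries, at 134 and 128 CPM per kilobase in OENr4a3 and 131 and 144 in OECtrl. Cdkn2b came next, at 30.3 and 31.7 in OENr4a3 and 38.7 and 53.7 in OECtrl. The order changed at the third place. In both OENr4a3 libraries Cdkn1b (17.4 and 15.7 CPM per kilobase) stood above Cdkn2a (10.5 and 10.8), and in both OECtrl libraries Cdkn2a (24.4 and 35.9) stood above Cdkn1b (13 and 14). Cdkn2d, Lmnb1, Cdkn2c, Hmgb2 and Cdkn1c followed in that order in every library. The ranges of neighbours in this order did not overlap within a group, but several gaps were smaller than the distance between the libraries of a gene beside them. In OENr4a3 this held for each step from Cdkn2a through Cdkn2d, Lmnb1 and Cdkn2c to Hmgb2. In OECtrl it held for each step from Cdkn2b through Cdkn2a, Cdkn1b and Cdkn2d to Lmnb1, and between Cdkn2c and Hmgb2. By that distance alone those neighbours are not told apart, although their order was the same within both libraries of each group. The order was not tested.

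The 7 inhibitors together summed to 206.4 and 197.9 CPM per kilobase in OENr4a3, against 221.2 and 266.1 in OECtrl. INK4 genes held 26.1% and 26.7% of that sum in OENr4a3, against 34.7% and 40.0% in OECtrl. The share of Cdkn2a was 5.08% and 5.45% in OENr4a3, against 11.0% and 13.5% in OECtrl. Cdkn1a held 65.1% and 64.9% in OENr4a3, against 59.2% and 54.3% in OECtrl. These shares describe transcripts, and no test was made on them.

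**Figure D3:**
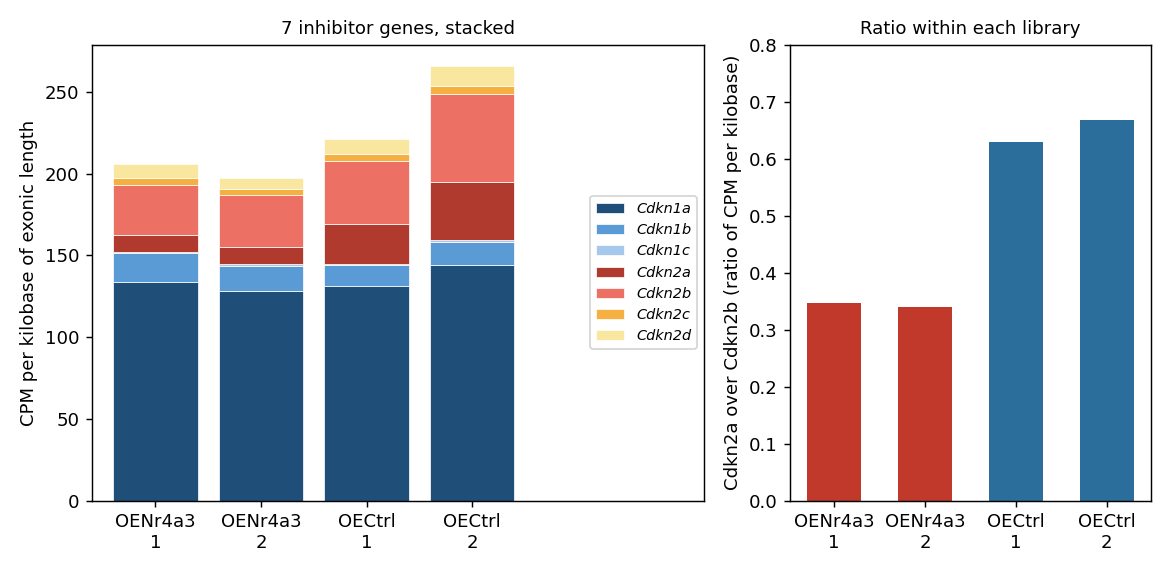
Left, the 7 inhibitor genes stacked in CPM per kilobase of exonic length for each library (OENr4a3 1 and 2, then OECtrl 1 and 2); right, the ratio of Cdkn2a to Cdkn2b in each library. The ratio is 0.346 and 0.34 in OENr4a3 and 0.63 and 0.668 in OECtrl.

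Lmnb1 (ENSMUSG00000024590, chromosome 18) encodes lamin B1, a farnesylated filament protein of the inner nuclear membrane. It had 12.8 and 14.9 CPM in OENr4a3, against 24.2 and 20.9 CPM in OECtrl, from 232 and 268 reads in OENr4a3 and 349 and 349 in OECtrl. The groups did not overlap, and OENr4a3 stood at 0.616 of OECtrl. Lmnb1 fell with a log2 fold change of -0.70 ± 0.148 SE (95% interval -1.03 to -0.368, adjusted p = 0.0124), and at -0.60 with the length trend removed (adjusted p = 0.0158). Leaving out OENr4a3 replicate 1 ended the call (-0.58, adjusted p = 0.137). Unlike Cdkn2a and Cdkn2b, Lmnb1 was lower in OECtrl replicate 2 than in replicate 1, at 0.865 times.

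Hmgb2 (ENSMUSG00000054717, chromosome 8, 57511907 to 57515999, plus strand) encodes a chromatin protein that bends DNA and is abundant in dividing cells. It had 9.47 and 10.3 CPM in OENr4a3, against 12.9 and 12.1 CPM in OECtrl (means 9.91 ± 0.618 and 12.5 ± 0.605 CPM, SD, n = 2 each). The groups did not overlap, but with 172 to 202 reads per library the log2 fold change of -0.33 ± 0.151 SE did not pass the test (95% interval -0.675 to 0.00484, adjusted p = 0.133; -0.24 and 0.284 after length removal). Its RefSeq window held 4 CCAAT boxes and 2 matches to TTTGAA, the cell cycle genes homology region (CHR), searched on both strands; TTTGAA was in 17.9% of all windows and in 2 of the members' 10, the other in Cdkn2b. Both OENr4a3 libraries lay below both OECtrl libraries for 6 of the 9 members and above them for 1, where 34.2% and 34.0% of all tested genes did so. The median log2 fold change of the 9 members was -0.33, and that of all tested genes -0.01. All members but Cdkn1b have fewer exonic bases than the median tested gene (4126), and shorter genes tended to be lower. The part of the length trend in the median of the members was not tested.

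The closest relatives of the nuclear proteins, Lmna, Lmnb2 and Hmgb1, did not pass the test, and are named here with their values known. Of the other lamins, Lmna measured 461.7 ± 13 and 539.7 ± 47.8 CPM in OENr4a3 and OECtrl (log2 fold change -0.23, adjusted p = 0.123; -0.35 and 0.0234 after length removal) and Lmnb2 12.3 ± 0.383 and 15.0 ± 3.17 CPM (-0.28, adjusted p = 0.256). Lmnb1 per kilobase stood at 0.0535 and 0.0649 of Lmna in OENr4a3, against 0.0941 and 0.0718 in OECtrl. Of 14 nuclear envelope genes, Syne1, which encodes the giant linker nesprin-1, rose (1.32, adjusted p = 0.00831), and Tmpo (-0.33, adjusted p = 0.0467; -0.66 after length removal) and Banf1, the DNA-bridging barrier-to-autointegration factor (-0.53, adjusted p = 0.0319), fell. These counts, 1 higher and 2 lower of 14, stand beside 12.0% higher and 11.0% lower of all tested genes. Syne1 has 40491 exonic bases, and its length-removed value was 0.61. Banf1 did not pass after length removal (-0.25, adjusted p = 0.124) or when either OENr4a3 library was left out (0.229 without replicate 1 and 0.113 without replicate 2). Of 8 other HMG genes, 0 rose and 3 fell (median -0.52): Hmgn5 (-0.76, adjusted p = 0.0114), Hmgn3 (-0.63, adjusted p = 0.0167) and Hmgn1 (-0.57, adjusted p = 0.0221), all nucleosome-binding proteins. Without OENr4a3 replicate 1, neither Hmgn5 (0.131) nor Hmgn3 (0.0753) had an adjusted p under 0.05, and Hmgn3 also missed it without replicate 2 (0.0902). With the length trend removed 0 HMG genes were higher and 3 lower, with a list median of -0.38. Hmgn5 then stood at -0.54, Hmgn1 at -0.49 and Hmgn3 at -0.40. Hmgb1, the closest relative of Hmgb2, measured 56.5 ± 1.68 and 58.6 ± 6.96 CPM (-0.05, adjusted p = 0.778). HMG genes have many near-identical retrocopies in the genome, so their counts are uncertain.

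The lists of genes that INK4 and CIP/KIP proteins act on differed in the direction of their called genes. Of all tested genes 12.0% were higher and 11.0% lower. Among the kinases, Cdk4 (log2 fold change -0.31, adjusted p = 0.0577) and Cdk2 (-0.15, adjusted p = 0.512) did not pass the test. Both are named here with their values known. Of 8 INK4 targets and RB family genes, 4 rose and 0 fell (median 0.32): Ccnd1 (151.4 ± 5.62 and 101.7 ± 13.8 CPM in OENr4a3 and OECtrl, log2 fold change 0.58, adjusted p = 0.011), Ccnd2 (0.50, adjusted p = 0.00924), Rbl2 (0.46, adjusted p = 0.022) and Cdk6 (0.44, adjusted p = 0.0411). With the length trend removed 2 were higher, Ccnd1 (0.53) and Ccnd2 (0.23), and the median was 0.06. Cdk6 (0.04, adjusted p = 0.793) and Rbl2 (0.26, adjusted p = 0.0758) did not pass after length removal. Neither Ccnd1 (adjusted p = 0.117 and 0.06) nor Ccnd2 (0.129 and 0.0871) passed when OENr4a3 replicate 1 or replicate 2 was left out. Of 7 CIP/KIP targets, 0 rose and 6 fell (median -0.66), among them Cdk1, the mitotic kinase (-0.78, adjusted p = 0.00415), and Ccna2, which encodes cyclin A (-0.80, adjusted p = 0.0052). Both kept their calls in all 13 alternative fits. With the length trend removed 4 of the 7 were lower, with a median of -0.63.

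Proliferation markers are given beside Lmnb1 and Hmgb2, whose transcripts are known to be higher in dividing cells. Of 16 markers, 0 rose and 7 fell, beside 12.0% and 11.0% of all tested genes. The median of the markers was -0.37, and -0.41 with the length trend removed. Birc5, which encodes survivin, measured 6.67 ± 0.165 and 13.1 ± 1.79 CPM in OENr4a3 and OECtrl (log2 fold change -0.98, adjusted p = 0.00597), and Rrm2, a subunit of ribonucleotide reductase, 18.8 ± 0.328 and 31.7 ± 3.3 CPM (-0.75, adjusted p = 0.00597). Mki67, named here with its value known, stood at 42.6 ± 4.02 and 39.9 ± 13.3 CPM (0.10, adjusted p = 0.74; -0.18 and 0.417 after length removal). The other 9 markers, Mki67 among them, did not pass the test, and the part of the 7 that fell in the Lmnb1 value was not tested. With the length trend removed 0 were higher and 6 lower, among them Top2a (-0.69, adjusted p = 0.00484), 1 of these 9.

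**Figure D4:**
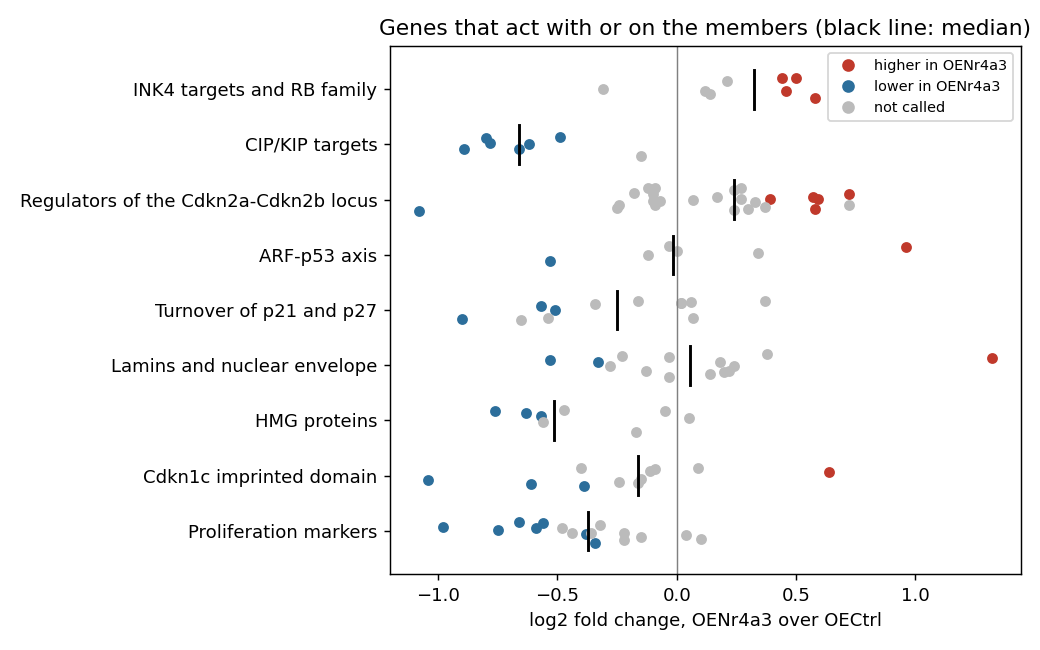
Log2 fold change of OENr4a3 over OECtrl (horizontal axis) for the tested genes of 9 lists (rows), with points for genes higher in OENr4a3 (red), lower (blue) or not called (grey) and black lines for medians. The CIP/KIP targets lie at a median of -0.66 and the INK4 targets and RB family at 0.32.

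Among 25 regulators of the Cdkn2a-Cdkn2b locus, mostly Polycomb proteins that silence it, 5 rose and 1 fell (median 0.24). Of all tested genes 12.0% were higher and 11.0% lower. With the length trend removed 3 regulators were higher and 3 lower (median 0.12), beside 9.07% and 11.2% of all tested genes. Id1, a repressor of p16 transcription in human cells, fell (34.99 ± 2.28 and 74.1 ± 13.6 CPM in OENr4a3 and OECtrl, log2 fold change -1.08, adjusted p = 0.00146; -0.77 after length removal). Those that rose were Phc3 (0.72, adjusted p = 0.00925), Kdm6b, the demethylase that opens Polycomb-silenced genes (0.59, adjusted p = 0.0148), Kdm2b (0.58, adjusted p = 0.0455), Ets1 (0.57, adjusted p = 0.014) and Ezh1 (0.39, adjusted p = 0.0414). After length removal Phc3 (0.25, adjusted p = 0.0754), Kdm2b (0.27, 0.221) and Ezh1 (0.20, 0.18) did not pass. Only after length removal was Pcgf2 higher (0.34, adjusted p = 0.0466), and were Ezh2 (-0.41, 0.0348) and Phc2 (-0.30, 0.0397) lower. Bmi1, the Polycomb protein best known for silencing Cdkn2a and named here with its value known, stood at 107.3 ± 2.8 and 115 ± 6.33 CPM (-0.10, adjusted p = 0.494).

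Downstream of Arf, Trp53 measured 59.7 ± 2.93 and 59.6 ± 3.68 CPM in OENr4a3 and OECtrl (adjusted p = 0.985) and Mdm2 218.4 ± 6.8 and 222.3 ± 7.06 CPM (adjusted p = 0.865), both named with their values known. Of the 6 genes of the ARF-p53 axis, 1 was higher and 1 lower, beside 12.0% and 11.0% of all tested genes. Npm1, the nucleolar partner of ARF, fell (-0.53, adjusted p = 0.0148). Huwe1, a ubiquitin ligase that ARF inhibits, rose (0.96, adjusted p = 0.0169, and 0.41 after length removal). Huwe1 did not pass in DESeq2 (adjusted p = 0.0998) and stood at 1.46 without OECtrl replicate 1 and 0.59 without OECtrl replicate 2. Npm1 did not pass when OENr4a3 replicate 1 (adjusted p = 0.127) or OENr4a3 replicate 2 (0.155) was left out. Of 12 genes for turnover of p21 and p27, 0 rose and 3 fell, beside the same shares of all tested genes. The 3 were Cks1b, the cofactor that lets SKP2 recognise p27 (-0.90, adjusted p = 0.00814), Rbx1 (-0.57, adjusted p = 0.0169) and Skp1 (-0.51, adjusted p = 0.0248). Cks1b has 1126 exonic bases and stood at -0.58 after length removal (adjusted p = 0.0139). Rbx1 did not pass without OENr4a3 replicate 1 (adjusted p = 0.157) or replicate 2 (0.0893). Of 11 tested genes of the 14 listed around Cdkn1c in its imprinted domain, the noncoding Kcnq1ot1 was higher (0.64, adjusted p = 0.0358; -0.36 and 0.13 after length removal), and Tspan32 (-1.04, adjusted p = 0.0311), Tssc4 (-0.61, adjusted p = 0.0118) and Tnfrsf23 (-0.39, adjusted p = 0.0341) were lower. Tspan32 did not pass in DESeq2 (adjusted p = 0.093) or without OENr4a3 replicate 1 (0.135) or replicate 2 (0.223), and Tssc4 did not without OENr4a3 replicate 1 (0.182).

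Genes whose centred log2 CPM ran closest to that of a called member over the 4 libraries were sought among 10301 named genes with a mean of at least 5 CPM. Closest to Cdkn2a were Gsta4, a glutathione transferase (Euclidean distance 0.0779, log2 fold change -1.52), Rpl22l1 (0.195, -1.54) and Nog, which encodes the BMP antagonist noggin (0.205, -1.71). Closest to Cdkn2b were Ndufaf8 (0.0204, log2 fold change -0.60), Tbca (0.025, -0.55) and Trmt61a (0.0292, -0.59), of which Tbca passed the test (adjusted p = 0.0262). Tbca did not pass after length removal (-0.19, adjusted p = 0.191), without the filter on low counts (0.073) or without OENr4a3 replicate 2 (0.117). Closest to Lmnb1 were the cytokine gene Il17d (0.0292, log2 fold change -0.74), Anln, which encodes the cytokinesis protein anillin (0.0489, -0.70), and Mpp2 (0.0515, -0.68). Il17d did not pass after length removal (-0.45, adjusted p = 0.186), in DESeq2 (0.0965), without the filter (0.0658), without OENr4a3 replicate 2 (0.0976) or without OECtrl replicate 1 (0.0577). The calls of Tbca and of all 3 genes nearest Lmnb1 were lost without OENr4a3 replicate 1 (adjusted p from 0.131 to 0.244). With 4 libraries in 2 groups, this likeness is a description only.

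**Figure D5:**
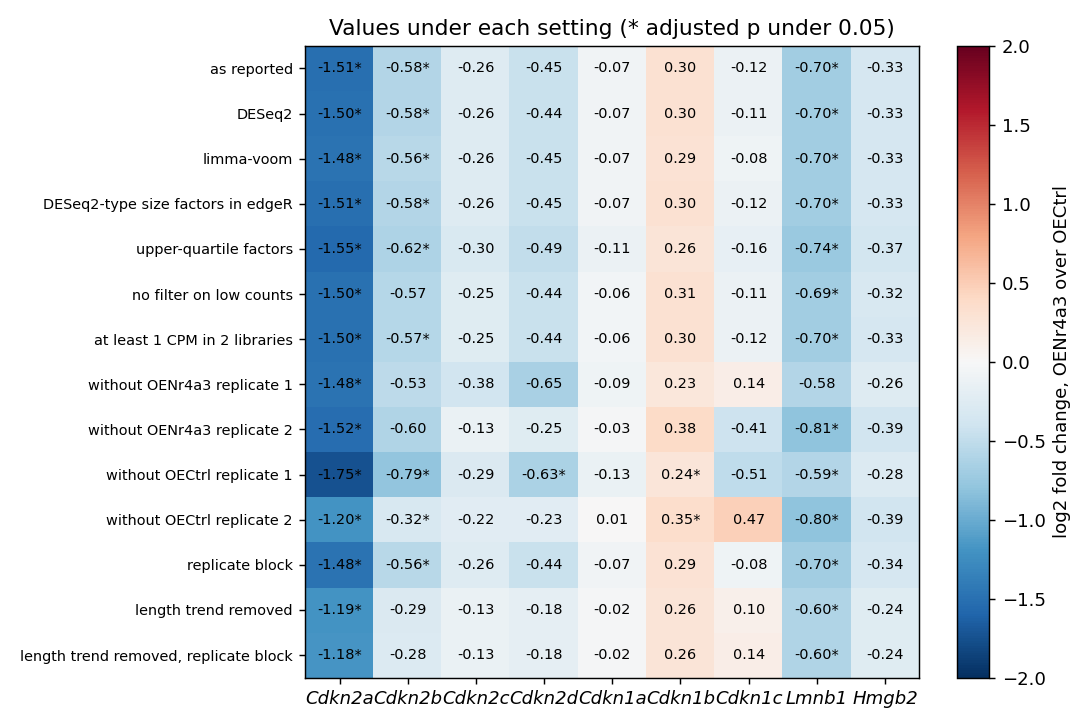
Log2 fold change of OENr4a3 over OECtrl for each gene (columns) as reported and under 13 alternative settings (rows), coloured from blue (lower) to red (higher), with an asterisk at an adjusted p under 0.05. Cdkn2a is lower in every row, from -1.75 to -1.18, and Lmnb1 is without an asterisk when OENr4a3 replicate 1 is left out.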

How the data were processed

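RNA was extracted with TRIzol, depleted of ribosomal RNA and sequenced as stranded paired-end libraries, per the labels' protocols, although the labels call the molecule polyA RNA. The authors deposited whole-number counts per Ensembl gene for 4 libraries in a single table, with the exonic length of each gene, per the file headers. The submitters' processing notes name mm10, SAMtools, featureCounts, Subread 1.5.1 and Trimmomatic 0.36. Aligner, annotation release and strand setting: not given in the sources used here. Besides counts, 4 FPKM columns stood in the table and were not used. Coordinates come from GENCODE M21 (GRCm38), matched by identifier for all 9 members, since the table's own positions differ from that build.

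Counts were tested in R 4.3.3 with edgeR 4.0.16 (filterByExpr, TMM, glmQLFit and glmQLFTest, two-sided, Benjamini-Hochberg over 15029 genes, called at an adjusted p under 0.05). SE was taken as |log2 fold change| / √F, and SD is over 2 libraries. CPM uses TMM-scaled library sizes, on which 3 reads, the most that a count of 0 allows, make 0.165 to 0.208 CPM (counting error only). The length trend was removed by a lowess (span 0.3) on log2 exonic length, used as an offset. It was fitted per library to log2 CPM centred on each gene's mean over the libraries. DESeq2 1.42.0 and limma-voom (limma 3.58.1) were alternatives. Named are all 9 members, the 2 genes of smallest p in each of 9 companion lists, list members called where they are 5 or fewer, and the 3 genes nearest each called member. Members and lists were chosen with earlier results of these data known.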

Additional observations from a re-analysis of the deposited data

How the results depend on the processing

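Over 13 alternative fits, 103 of 117 member values kept their direction and side of the threshold. Cdkn2a was called lower in each of the 13 (-1.75 to -1.18), Lmnb1 in 12 and Cdkn2b in 8. Leaving out a library gave 1 to 5 called members, 1203 to 7133 called genes and 10 to 59 of 110 companion genes, against 3, 3457 and 38. Such a fit leaves 1 library in a group, assumed to vary like the other group, and OECtrl libraries varied more. Cdkn1a stood between -0.13 and 0.01 in these fits, and Cdkn1c between -0.51 and 0.47. Cdkn1c also turned to 0.10 with the length trend removed and 0.14 with the replicate block added to it. Without the filter on low counts 1878 genes (59.7% of them higher, against 52.1%) and 20 companions were called. DESeq2 called 25 companions. An adjusted p under 0.01 left 911 genes, 1 member (Cdkn2a) and 9 companions.

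The labels state no pairing of same-numbered libraries, whose deviations had a correlation of -0.0776. With 2 libraries a group, that value cannot decide whether they share a culture or batch. With the replicate block 3851 genes, 3 members and 40 companions were called, and with the length trend removed 3287, 2 and 32. The order of member levels within a library does not depend on the scaling. Depth limits Cdkn1c, with 17 to 39 reads.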

Other observations

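Gene annotations in the authors' table place all 7 inhibitors in the cell cycle pathway and Cdkn1a, Cdkn2a and Cdkn2b in the cellular senescence pathway. Of 125 tested genes of the cell cycle pathway, 10.4% were higher and 20.0% lower in OENr4a3 (median log2 fold change -0.17). Of 148 tested genes of the cellular senescence pathway, 22.3% were higher and 13.5% lower (median 0.09), beside 12.0% and 11.0% of all tested genes. Of 116 tested genes of the FoxO signaling pathway, which holds Cdkn1a, Cdkn1b, Cdkn2b and Cdkn2d, 21.6% were higher and 11.2% lower (median 0.04). The other terms given for several members had from 16.1% (viral carcinogenesis) to 26.7% (endocrine resistance) of their tested genes higher. The senescence and FoxO shares lie within that range. No pathway values were made with the length trend removed. These pathways were chosen after the data were seen, share members and were not tested as sets.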
